A study of Mus musculus with 6 samples.

Results

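The genes described are the mouse substrate adaptors of cullin ubiquitin ligases that carry the symbols Asb, Klhl or Kbtbd followed by a number. All protein-coding genes of the count table with such a symbol were taken, which gave 64 of the 47967 genes listed. They comprised 18 ASB genes, 37 KLHL genes and 9 KBTBD genes. RNA was sequenced from a calf muscle, the gastrocnemius. The animals were C57BL/6 males aged 20 to 24 weeks. One group had spent 12 weeks on normal phosphate food (inorganic 0.6%, total 0.9%) and the other on high phosphate food (inorganic 2.0%, total 2.3%). Magnesium (0.3%), calcium (1.9%), potassium (1.8%) and sodium (0.9%) were the same in both diets. Each diet has 3 libraries, and the labels do not say that each came from its own mouse, so the p-values speak of the spread between libraries, part of which may be technical.

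Cullin-RING ligases attach ubiquitin to proteins, which marks many of them for breakdown, and an exchangeable adaptor decides which protein is bound. ASB proteins join ankyrin repeats, which bind the substrate, to a SOCS box that docks on elongins B and C and cullin 5. Most KLHL and KBTBD proteins bind cullin 3 through a BTB domain and the substrate through Kelch repeats. Several members of each family are known chiefly from striated muscle, and KLHL40, KLHL41 and KBTBD13 are genes of nemaline myopathy, a disease of the thin filament.

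Of the 64 genes, 56 passed the filter on low counts and were tested, and 38 of them (67.9%) differed between the diets at an adjusted p under 0.05 by edgeR, against a background of 49.3% of all 15347 genes tested. Higher on high phosphate were 30 members, where 23.0% of all genes were higher, and lower were 8 members, where 26.3% of all genes were lower. The families differed in their counts. In the ASB family 13 of 16 tested genes rose and 0 fell, with a median log2 fold change (high over normal phosphate, here and below) of 0.77. In the KLHL family 14 of 32 rose and 7 fell, with a median of 0.19. In the KBTBD family 3 of 8 rose and 1 fell, with a median of 0.23. Over all genes tested the median was -0.02. A change of at least 2-fold was reached by 7 members that rose, where 4.47% of all genes did so, and by 6 that fell, where 13.5% did. Every high phosphate library lay above every normal phosphate library for 33 of the 56 tested members, against 30.3% of all genes, and below for 9, against 32.1%. This was bulk tissue, in which fewer cells of a type and less RNA per cell cannot be told apart.

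**Figure D1:**
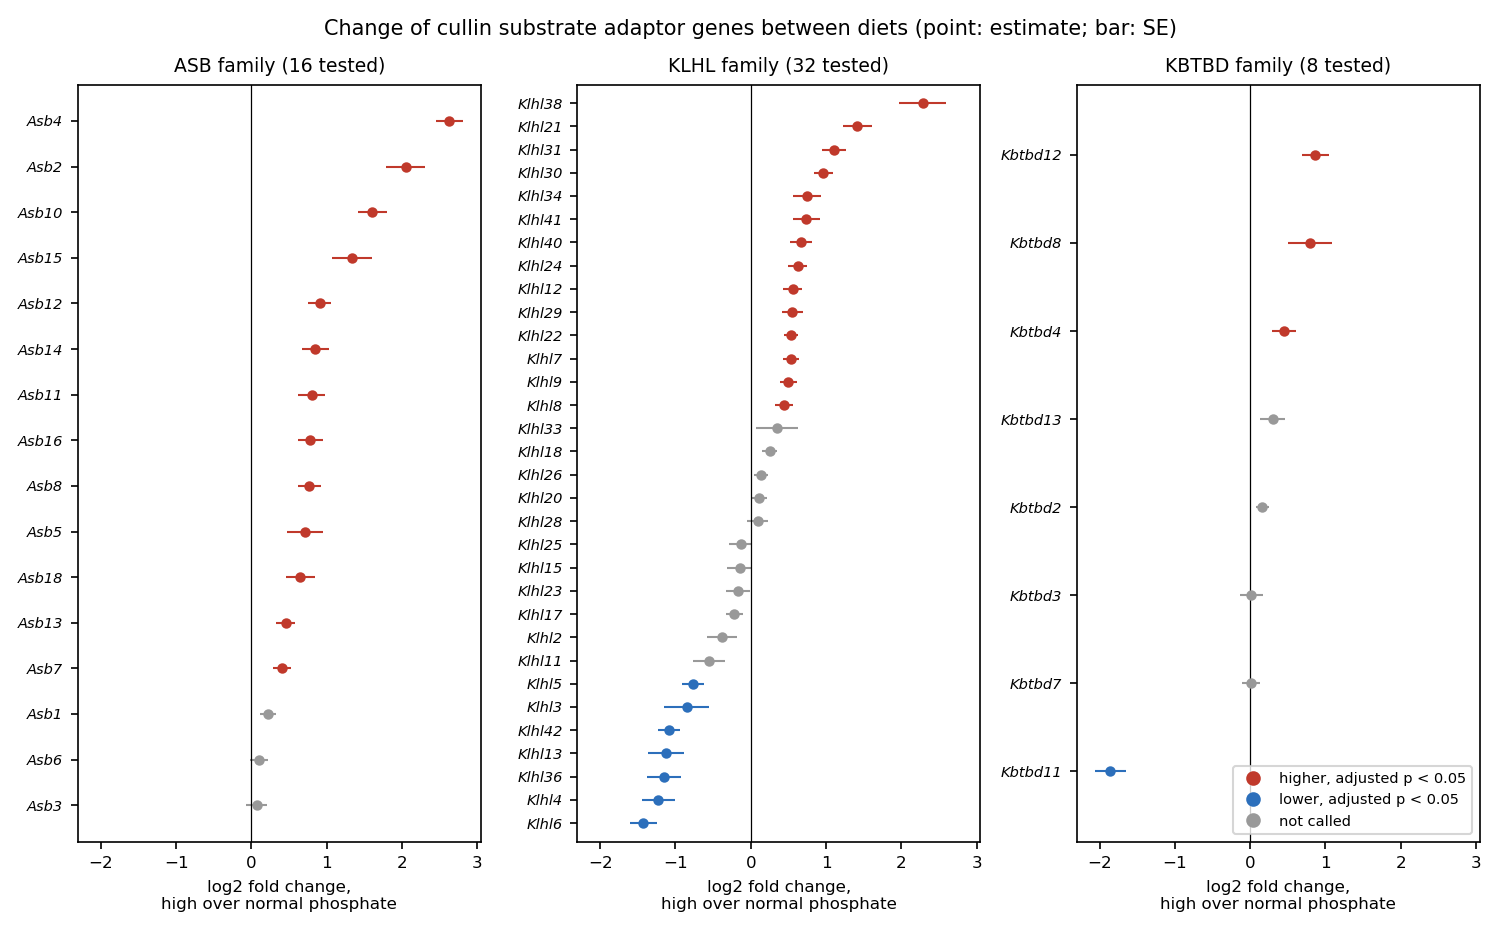
Log2 fold change of each tested ASB, KLHL and KBTBD gene, high over normal phosphate (horizontal axis), as edgeR's estimate (point) with its standard error (bar), 3 libraries per diet. The ASB genes lie right of 0 (0.07 to 2.63), whereas KLHL genes span -1.42 to 2.28 and Kbtbd11 stands alone at -1.85; scaling by library size alone puts 5 ASB genes and more of the Kelch genes left of 0.

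These directions depend in part on the scaling. The libraries held 21856006 to 27474251 gene counts, and the TMM scaling factors were 1.10 to 1.29 on normal and 0.795 to 0.882 on high phosphate. Scaled by library size alone, the median of all genes moved from -0.02 to -0.49, with 878 genes higher and 7886 lower. The ASB median stayed above 0, at 0.30, while the KLHL and KBTBD medians turned to -0.28 and -0.24. Relative to the median of all genes the ASB distance was 0.79 with TMM and 0.80 with library size alone. It was 0.21 in both for KLHL, and 0.25 in both for KBTBD. A change of scaling shifts all genes by nearly the same amount, so this agreement follows from the subtraction. On the deposited FPKM values these distances depended on the pseudocount. They were 0.58, 0.17 and 0.12 as log2(FPKM + 1), and 0.75, 0.31 and 0.26 as log2(FPKM + 0.1). Calls that held in all 15 alternatives tried, thresholds on the size of the change aside, were 10 of the 30 that rose (Asb2, Asb4, Asb8, Asb10, Asb12, Asb14, Klhl21, Klhl30, Klhl31 and Klhl38) and 6 of the 8 that fell (Klhl4, Klhl5, Klhl6, Klhl13, Klhl36 and Klhl42).

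**Figure D2:**
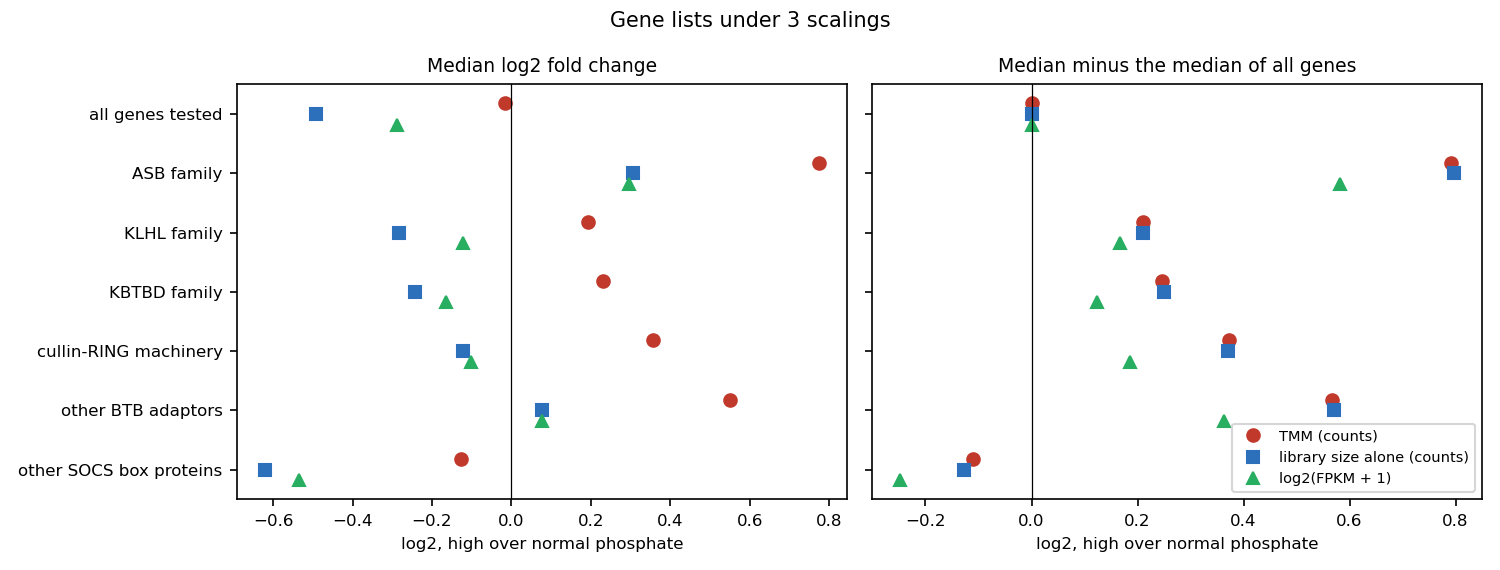
Median log2 fold change of each gene list under 3 scalings (left) and the same after subtracting the median of all genes tested (right), high over normal phosphate. The ASB median lies above 0 under all 3 scalings (0.77, 0.30 and 0.29), while the KLHL, KBTBD and cullin-RING machinery medians change sign. The right panel brings TMM and library size alone together, which follows from the subtraction.

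Direction went with mean abundance over all 6 libraries, a split made after the values were seen. High phosphate values enter that mean, so a rise or fall itself moved some members between levels. The risers Asb4, Klhl38, Klhl34 and Klhl29, with means of 5.59, 9.61, 7.76 and 8.73 CPM on normal phosphate, were not counted below 10 CPM. The fallers Klhl42 and Kbtbd11, at 13.3 and 14.0 CPM on normal phosphate, were counted there. All 16 members with a mean of at least 50 CPM (counts normalized to library depth) rose, whereas 47.1% of all genes at that level rose and 12.7% fell. Between 10 and 50 CPM, 12 of 28 members rose and 2 fell, where 25.2% of all genes rose and 25.7% fell. Below 10 CPM, 2 of 12 members rose and 6 fell, where 8.46% of all genes rose and 33.9% fell. These counts are from TMM scaling, and the split was not made under another. With library size alone Asb5, Asb11, Asb16, Klhl7, Klhl9, Klhl24, Klhl40 and Klhl41, all at 50 CPM or more, lost their calls. Their estimates under that scaling ran from 0.02 (Klhl9) to 0.34 (Asb11).

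The ASB transcripts spanned nearly the whole range of abundance in the set. On the per-length FPKM scale Asb5 (183 on normal phosphate) and Asb2 (107) stood next to Klhl41 (188) at the top of all members, followed by Asb8 (57.0), Asb11 (50.1) and Asb14 (45.2). Asb3 (3.09), Asb7 (2.00) and Asb4 (1.26) stood far lower, and Asb9 was listed at 0. The whole family summed to 1549, 992 and 1290 CPM in the normal phosphate libraries (replicates 1, 2 and 3, the order used throughout) and to 2655, 3663 and 2988 CPM in the high phosphate libraries. Asb2 alone made up 24.3 to 26.6% of that sum on normal and 36.1 to 46.9% on high phosphate.

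Asb2 is the adaptor that sends filamins to degradation, and in muscle it is known for limiting fibre mass. It lies on chromosome 12 from 103321142 to 103356001 on the minus strand (GRCm38). Its level was 398, 255 and 313 CPM on normal phosphate and 957, 1720 and 1328 CPM on high phosphate. The mean went from 322 ± 71.6 to 1335 ± 381 (SD, n = 3 each), a log2 fold change of 2.05 ± 0.26 (SE; edgeR adjusted p = 0.000662). No high phosphate library came near the normal range, although replicates 1 and 2 on high phosphate differed between themselves by more than the 3 normal libraries did.

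Asb4, an adaptor known from placental blood vessels and the hypothalamus, had the largest fold change of the tested members. It lies on chromosome 6 from 5383386 to 5433022 on the plus strand. It measured 6.74, 5.46 and 4.58 CPM on normal and 29.7, 41.1 and 32.8 CPM on high phosphate, a log2 fold change of 2.63 ± 0.18 (adjusted p = 8.93e-05). The diets were far apart, at a level that stayed low: its mean FPKM was 1.26 and 6.18. Asb10, a gene linked to glaucoma, rose from 84.1, 49.2 and 81.1 CPM to 215, 218 and 218 CPM (1.60 ± 0.19, adjusted p = 0.000571). The 3 high phosphate libraries nearly coincided (SD 1.60 CPM), while the normal libraries spread more (SD 19.3 CPM). Asb15, whose transcript is found mainly in skeletal muscle, rose from 78.1, 44.1 and 86.1 CPM to 160, 223 and 144 CPM (1.34 ± 0.26, adjusted p = 0.00427). On log2(FPKM + 1) its change was 0.46 and no longer passed the test (limma adjusted p = 0.338), and its FPKM per CPM varied 1.98-fold between libraries.

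A second group of ASB genes rose by less than 2-fold. Asb12 went from 30.0, 19.7 and 21.3 to 43.8, 44.8 and 44.4 CPM, and its high phosphate libraries nearly coincided. Asb14 went from 141, 85.0 and 128 to 227, 198 and 213 CPM. Asb11, whose zebrafish counterpart is known from Notch signalling in progenitor cells, went from 139, 93.8 and 127 to 188, 247 and 192 CPM. In these 3 genes the lowest high phosphate value exceeded the highest normal value, and the log2 fold changes were 0.91 ± 0.15, 0.85 ± 0.18 and 0.80 ± 0.18 (adjusted p = 0.00177, 0.00513 and 0.00563). Asb16 had 79.7, 54.9 and 80.1 CPM on normal and 140, 117 and 113 CPM on high phosphate (0.78 ± 0.16, adjusted p = 0.00433). With library size alone the changes of Asb11 (0.34, adjusted p = 0.0843) and Asb16 (0.31, adjusted p = 0.0519) were no longer called.

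Asb5 and Asb18 were among the less stable ASB calls, with Asb7 and Asb13. Asb5 had 412, 236 and 270 CPM on normal and 416, 619 and 473 CPM on high phosphate (0.72 ± 0.24, adjusted p = 0.0320), so that replicate 1 of each diet had almost the same level. Without normal replicate 2 or 3 or high replicate 2 or 3 its adjusted p was 0.0890, 0.0938, 0.117 and 0.0631. Asb18 had 20.6, 16.1 and 22.7 CPM on normal and 39.9, 25.6 and 27.6 CPM on high phosphate (0.65 ± 0.19, adjusted p = 0.0197). Without normal replicate 2 or high replicate 1, the highest, its adjusted p was 0.0593 and 0.0574, and on log2(FPKM + 1) its sign turned to -0.09. The remaining called genes were Asb8 (0.77), Asb13 (0.46) and Asb7 (0.41). Asb13 lost its call without high replicate 3 (0.40, adjusted p = 0.0583). Asb7 lost it without normal replicate 3 (0.38, adjusted p = 0.0629) or high replicate 1 (0.35, adjusted p = 0.0643). With library size alone Asb7 and Asb13 turned to -0.07 and -0.01. Asb1 (0.22, adjusted p = 0.114), Asb6 (0.10) and Asb3 (0.07), the last an adaptor reported for tumour necrosis factor receptor 2, did not pass the test. In Asb1 the diets did not overlap, at 17.0 to 19.6 against 20.4 to 23.1 CPM.

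**Figure D3:**
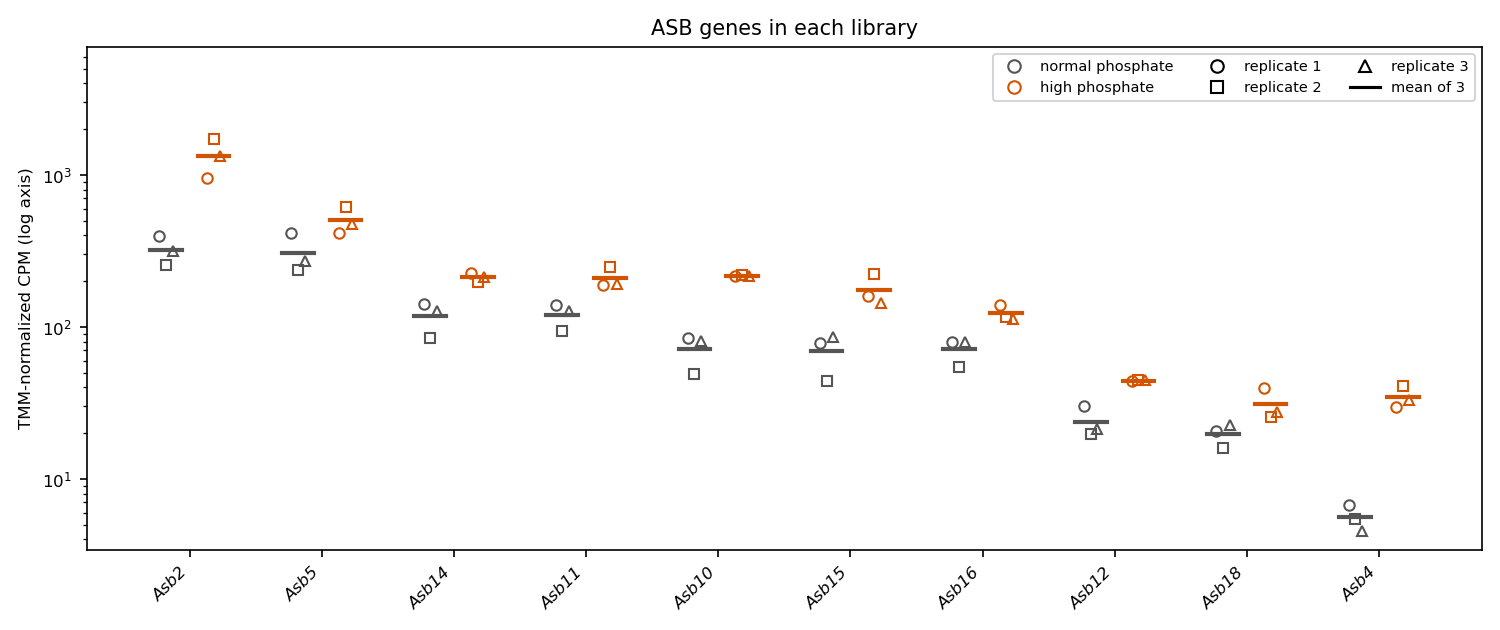
TMM-normalized CPM (log axis) of 10 ASB genes in each of 6 libraries, grey for normal and orange for high phosphate, with marker shape for the replicate number and a bar for the mean of 3. The diets are widely apart in Asb2, Asb10 and Asb4, whereas replicate 1 of both diets is at 412 and 416 CPM in Asb5.

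The letters CTA and TAG with any 4 bases between them are a loose form of the site that MEF2 factors of muscle bind. Of the ASB promoters, 3 among genes that rose hold these letters, here called the MEF2 core. They are shown to let this stretch be seen in place, 250 bases before to 50 bases after the start annotated by RefSeq (GRCm38.p6), read 5′ to 3′ along the gene. The windows are chrX:95478080-95478379 (minus strand) for Asb12, chr11:102268501-102268800 (plus strand) for Asb16 and chr1:90014617-90014916 (minus strand) for Asb18. Capitals mark the MEF2 core, which begins at -48, -58 and -11 relative to the start, and GTAAACA or its reverse complement, the core that FOXO factors bind, which begins at -81 in Asb16 and -183 in Asb18.
Asb12: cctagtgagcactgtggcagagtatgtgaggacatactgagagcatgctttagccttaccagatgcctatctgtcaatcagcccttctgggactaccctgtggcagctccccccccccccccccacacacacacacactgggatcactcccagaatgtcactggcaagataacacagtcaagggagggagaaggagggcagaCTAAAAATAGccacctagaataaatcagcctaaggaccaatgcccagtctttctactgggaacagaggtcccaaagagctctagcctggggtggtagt
Asb16: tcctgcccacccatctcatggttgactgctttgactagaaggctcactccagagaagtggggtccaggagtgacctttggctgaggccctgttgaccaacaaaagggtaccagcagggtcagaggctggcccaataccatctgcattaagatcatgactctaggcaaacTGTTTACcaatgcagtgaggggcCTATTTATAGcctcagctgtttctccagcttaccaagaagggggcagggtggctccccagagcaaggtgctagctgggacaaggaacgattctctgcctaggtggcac
Asb18: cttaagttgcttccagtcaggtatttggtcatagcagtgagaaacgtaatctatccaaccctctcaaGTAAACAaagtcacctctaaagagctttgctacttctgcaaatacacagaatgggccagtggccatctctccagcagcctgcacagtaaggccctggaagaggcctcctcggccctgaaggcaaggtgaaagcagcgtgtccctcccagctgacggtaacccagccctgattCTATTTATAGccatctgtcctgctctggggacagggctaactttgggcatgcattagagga

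The KLHL family moved both ways. Its 3 largest rises were in Klhl38, Klhl21 and Klhl31, and its 5 falls of at least 2-fold were all in genes with a mean below 50 CPM. The family summed to 1750, 1430 and 1594 CPM on normal and 2686, 2647 and 2417 CPM on high phosphate, of which Klhl41 took 27.7 to 31.0% and 28.4 to 32.0%.

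Among the KLHL genes known from the sarcomere, Klhl41, whose loss causes nemaline myopathy, had 543, 396 and 443 CPM on normal and 861, 751 and 693 CPM on high phosphate (0.74 ± 0.18, adjusted p = 0.00842). Klhl40, which stabilises nebulin and leiomodin 3, had 136, 105 and 122 CPM on normal and 216, 191 and 171 CPM on high phosphate (0.67 ± 0.14, adjusted p = 0.00486). Klhl31, reported to act on filamin C, had 241, 171 and 209 CPM on normal and 440, 449 and 450 CPM on high phosphate (1.11 ± 0.16, adjusted p = 0.000999). In all 3 the diets were apart, and normal replicate 2 was the lowest library. With library size alone only Klhl31 of these 3 kept its call, while Klhl41 (0.27, adjusted p = 0.0877) and Klhl40 (0.20, adjusted p = 0.130) did not. On high phosphate the mean FPKM was 215 for Klhl41, 50.8 for Klhl40 and 45.1 for Klhl31.

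The promoter of Klhl41 is shown because it holds the MEF2 core (capitals) beginning at -63, in the same kind of window, chr2:69669870-69670169 on the plus strand of GRCm38.p6.
Klhl41: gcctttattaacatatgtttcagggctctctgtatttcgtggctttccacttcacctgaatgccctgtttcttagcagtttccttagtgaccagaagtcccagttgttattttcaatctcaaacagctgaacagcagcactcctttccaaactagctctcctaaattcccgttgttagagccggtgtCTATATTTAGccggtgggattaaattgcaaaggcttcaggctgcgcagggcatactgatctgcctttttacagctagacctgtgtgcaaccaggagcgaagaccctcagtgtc

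Klhl38, on chromosome 15 from 58314573 to 58324169 on the minus strand, had the largest KLHL change. Its level was 12.0, 8.15 and 8.68 CPM on normal and 30.8, 69.4 and 39.8 CPM on high phosphate (2.28 ± 0.32, adjusted p = 0.00141). All high phosphate libraries were above all normal ones, with replicate 2 well above the other two. A predicted gene on the opposite strand, Gm15943, overlaps 65.4% of its exonic bases and held 49, 24 and 29 counts on normal and 77, 241 and 81 counts on high phosphate, so reads of the pair may have been divided between them. Klhl21, an adaptor reported for Aurora B in dividing cells, had 91.7, 65.6 and 98.0 CPM on normal and 226, 269 and 184 CPM on high phosphate (1.41 ± 0.19, adjusted p = 0.000806). Klhl30 had 60.1, 48.6 and 62.4 CPM on normal and 109, 105 and 120 CPM on high phosphate (0.96 ± 0.12, adjusted p = 0.000684). Both genes were far apart between the diets and kept their calls in all 15 alternatives, as did Klhl38.

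Klhl24, a gene of skin fragility and cardiomyopathy, had 169, 145 and 153 CPM on normal and 224, 264 and 230 CPM on high phosphate (0.62 ± 0.13, adjusted p = 0.00440). Klhl34 had 10, 5.88 and 7.40 CPM on normal and 12.8, 13.0 and 13.1 CPM on high phosphate (0.74 ± 0.18, adjusted p = 0.00937). Neither gene overlapped between the diets, and neither was called with library size alone (0.15 and 0.28). Klhl33 showed a single high library: it had 46.1, 35.7 and 44.6 CPM on normal and 80.4, 38.7 and 41.2 CPM on high phosphate, and did not pass the test (0.34 ± 0.28, adjusted p = 0.331). The smaller rises were in Klhl12 (0.56), which acts on the coat of secretory vesicles, Klhl29 (0.55), Klhl22 (0.53), reported to act on the mTORC1 inhibitor DEPDC5, Klhl7 (0.53), a gene of retinitis pigmentosa, Klhl9 (0.50) and Klhl8 (0.44). None of these 6 was called with library size alone, where they ranged from -0.03 to 0.08. Klhl8 also lost its call without high replicate 1 (0.38, adjusted p = 0.0546).

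The falling KLHL genes were of low level. Klhl6, an adaptor known from mature B cells, had 6.21, 8.57 and 8.09 CPM on normal and 2.66, 2.90 and 2.96 CPM on high phosphate (-1.42 ± 0.18, adjusted p = 0.000696). Klhl4 had 7.36, 11.7 and 8.97 CPM on normal and 3.21, 4.48 and 4.31 CPM on high phosphate (-1.23 ± 0.21, adjusted p = 0.00201). Klhl36 had 4.60, 5.67 and 5.24 CPM on normal and 1.70, 2.39 and 2.91 CPM on high phosphate (-1.15 ± 0.23, adjusted p = 0.00351). In each of these 3 the diets were apart, and replicate 2 was the highest normal library.

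Klhl13, a partner of Klhl9 and Klhl21 in work on Aurora B, had 20.5, 30.2 and 15.9 CPM on normal and 8.20, 11.4 and 11.0 CPM on high phosphate (-1.13 ± 0.24, adjusted p = 0.00550). Klhl42, reported to act on the microtubule-severing protein katanin, had 11.7, 15.0 and 13.2 CPM on normal and 5.64, 6.37 and 6.75 CPM on high phosphate (-1.09 ± 0.15, adjusted p = 0.000778). Klhl5 had 21.4, 27.9 and 24.6 CPM on normal and 11.9, 15.8 and 15.7 CPM on high phosphate (-0.77 ± 0.15, adjusted p = 0.00301). The 6 genes from Klhl6 to Klhl5 kept their calls in all 15 alternatives. Klhl3, which controls WNK kinases in the kidney, was near the lower limit of the measurement, at 1.11, 1.84 and 1.94 CPM on normal and 0.962, 0.866 and 0.883 CPM on high phosphate (-0.85 ± 0.30, adjusted p = 0.0390). Its call was lost with DESeq2 (adjusted p = 0.0712), with no filter on low counts (0.0577), and on leaving out any library other than normal replicate 1 (adjusted p 0.0826 to 0.127).

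The other 10 tested KLHL genes did not pass the test. They were Klhl11 (-0.55, adjusted p = 0.0569), Klhl2 (-0.38), which like Klhl3 acts on WNK kinases, Klhl17 (-0.22), Klhl23 (-0.17), Klhl15 (-0.14), Klhl25 (-0.14), Klhl28 (0.09), Klhl20 (0.11), Klhl26 (0.14) and Klhl18 (0.25, adjusted p = 0.0544). The diets did not overlap in Klhl17, Klhl18 and Klhl26. Without normal replicate 1 the fall of Klhl11 passed the test (-0.72, adjusted p = 0.0183).

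**Figure D4:**
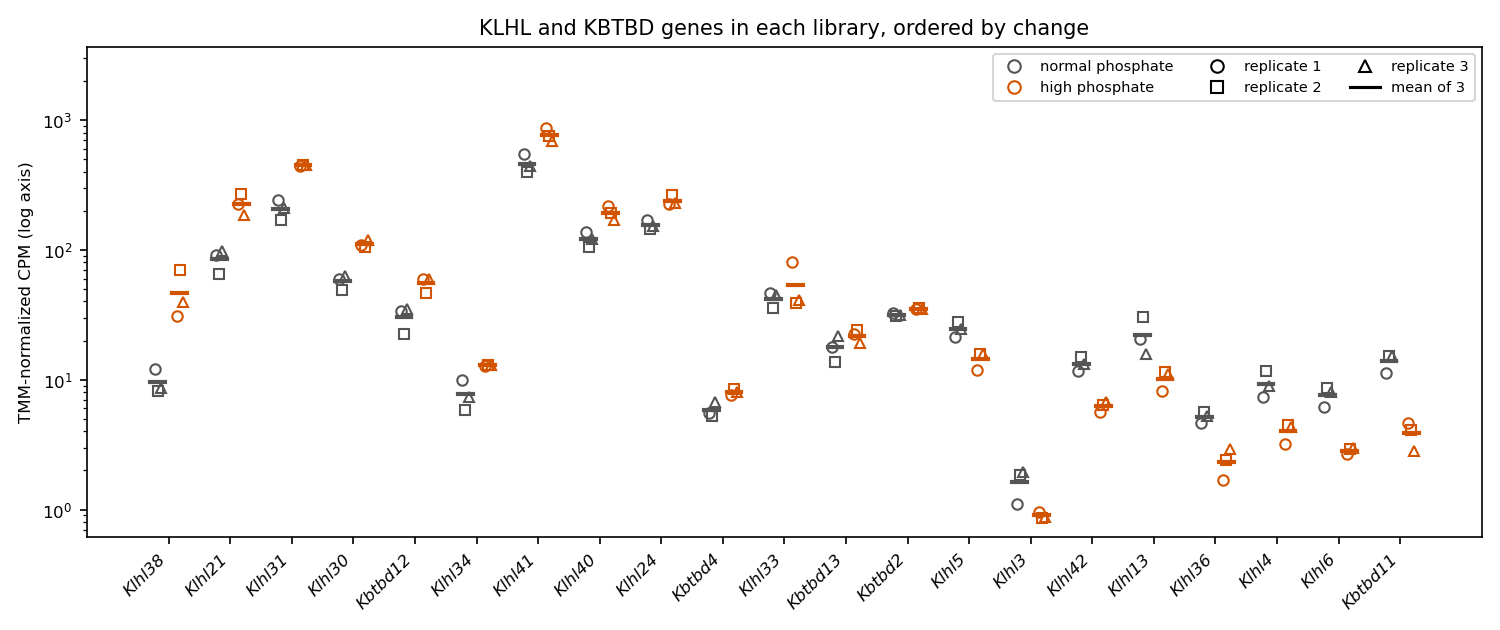
TMM-normalized CPM (log axis) of 21 KLHL and KBTBD genes in each library, ordered by log2 fold change, with grey for normal and orange for high phosphate, marker shape for the replicate and a bar for the mean of 3. The genes at the right, from Klhl5 to Kbtbd11, are lower on high phosphate in every library and lie at or below 30.2 CPM, whereas Klhl33 has one high library at 80.4 CPM.

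The KBTBD family held the largest fall of all members. Kbtbd11, on chromosome 8 from 15011025 to 15033333 on the plus strand, had 11.3, 15.3 and 15.3 CPM on normal and 4.63, 4.13 and 2.80 CPM on high phosphate (-1.85 ± 0.21, adjusted p = 0.000449). The diets were apart, with every high phosphate library below the 11.3 CPM of the lowest normal one. Its deposited FPKM was 1.44, 2.36 and 15.5 on normal and 0.424, 0.428 and 0.320 on high phosphate, so that normal replicate 3 alone was high on that scale, and the change on log2(FPKM + 1) was -1.89 with an adjusted p of 0.0625 (limma). Kbtbd12 had 33.7, 22.3 and 35.1 CPM on normal and 60.1, 46.5 and 59.6 CPM on high phosphate (0.87 ± 0.18, adjusted p = 0.00458), with no overlap. Its promoter window, chr6:88627380-88627679 on the minus strand of GRCm38.p6, is shown for the same reason as that of Klhl41, with the MEF2 core in capitals beginning at -91.
Kbtbd12: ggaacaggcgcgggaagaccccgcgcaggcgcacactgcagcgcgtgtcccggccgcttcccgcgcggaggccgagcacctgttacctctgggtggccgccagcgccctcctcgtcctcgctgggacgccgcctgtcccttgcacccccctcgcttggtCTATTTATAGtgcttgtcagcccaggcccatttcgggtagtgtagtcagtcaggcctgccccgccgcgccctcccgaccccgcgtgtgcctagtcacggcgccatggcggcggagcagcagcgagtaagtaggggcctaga

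Of the other KBTBD genes, Kbtbd4 and Kbtbd8 passed the test narrowly. Kbtbd4, a gene altered in medulloblastoma, had 5.56, 5.21 and 6.77 CPM on normal and 7.56, 8.41 and 7.996 CPM on high phosphate (0.45 ± 0.16, adjusted p = 0.0372). Its exons overlap Ndufs3 and Ptpmt1 on the opposite strand over 55.6% of their bases, and Ndufs3 held 4139 to 6409 counts per library. Leaving out any library other than normal replicate 3 ended its call (adjusted p 0.0574 to 0.0965), and with library size alone it turned to -0.02. Kbtbd8, known from neural crest formation, rose with overlapping diets (0.79 ± 0.29, adjusted p = 0.0453). That call ended without normal replicate 1 or 2 or high replicate 1 or 3 (adjusted p 0.108 to 0.125). Kbtbd13, the third nemaline myopathy gene, had 17.8, 13.8 and 21.7 CPM on normal and 22.3, 24.0 and 19.1 CPM on high phosphate (0.30 ± 0.17, adjusted p = 0.164), and the diets overlapped. Without normal replicate 3 it passed the test (0.46, adjusted p = 0.0416). Kbtbd2, which acts on the p85α subunit of phosphoinositide 3-kinase, had 32.3, 30.9 and 31.5 CPM on normal and 35.0, 35.8 and 35.0 CPM on high phosphate (0.16 ± 0.09, adjusted p = 0.157), a small shift without overlap that turned to -0.31 with library size alone. Kbtbd3 (0.02) and Kbtbd7 (0.01) did not pass the test.

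The 8 members that did not pass the filter on low counts were Asb9, Asb17, Klhl1, Klhl10, Klhl14, Klhl32, Klhl35 and Kbtbd6, none with a mean above 7.67 counts per library. Asb17, known from testis, had 0, 1 and 0 counts on normal and 1, 8 and 17 counts on high phosphate. Kbtbd6 shares 24.7% of its 50-base stretches with Kbtbd7, its neighbour on chromosome 14, so reads of the pair may not have been told apart. The strand setting of the counting is not given in the sources used here, and genes on the opposite strand also overlap the exons of Kbtbd11 (24.8% of its bases), Klhl40 (21.6%), Klhl21 (20.5%) and Klhl9 (15.8%), so the values of these genes are uncertain to that extent.

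Promoter windows were given for 55 of the 64 members. The MEF2 core, sought on both strands (it reads the same on each), was in those of 5 of 26 genes that rose (19.2%), 0 of 6 that fell and 3 of 17 that were not called (17.6%), namely Asb1, Klhl33 and Kbtbd13. Of all 27025 genes with a window, 4.23% held it. In Asb1 the 4 bases between CTA and TAG were all G, whereas in the windows shown they were A or T. GTAAACA, on either strand, was in 2 of 26 that rose (7.69%), against 4.05% of all genes. CANNTG, the letters bound by MyoD-like factors, was in 19 of 26 (73.1%), 5 of 6 (83.3%) and 7 of 17 (41.2%), against 20265 of the 27025 genes. AGAACA and TGTTCT with any 3 bases between them, the palindrome of the glucocorticoid receptor, was in none of them and in 0.0111% of all genes. In the windows shown the matches did not overlap each other, and a match is a description of letters, not of binding.

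Genes of the ligase machinery that these adaptors join were read from the same fit. The 36 genes covered cullins and their exchange factors, RING and elongin subunits, neddylation and its removal by the COP9 signalosome, besides Arih1, Arih2 and Glmn. Of them 20 rose (55.6%, where 23.0% of all genes rose) and 2 fell (5.56%, where 26.3% fell). Scaling by library size alone moved their median from 0.36 to -0.12. Cand2, an exchange factor of cullins known from muscle, had 67.4, 60.2 and 80.5 CPM on normal and 219, 145 and 163 CPM on high phosphate (1.34 ± 0.18, adjusted p = 0.000750). Cul3, the cullin of the Kelch families, had 232, 172 and 240 CPM on normal and 474, 390 and 401 CPM on high phosphate (0.98 ± 0.17, adjusted p = 0.00206). Cul5, the cullin of the ASB family, went from 83.3, 69.8 and 91.6 to 159, 127 and 131 CPM (0.77 ± 0.14), and Elob, for elongin B, from 135, 93.4 and 130 to 205, 193 and 233 CPM (0.82 ± 0.16). The diets were apart in each of these 4 genes. Cops3, of the signalosome (0.69), and Dcun1d2, of neddylation (0.89), also rose, whereas Cul7 (-1.26) and Cand1 (-0.46) fell. Rbx1 (0.10), the RING subunit of cullin 3, and Rnf7 (0.25), that of cullin 5, did not pass the test.

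Adaptors with a BTB domain or SOCS box outside the symbol rule were read in the same way, and no difference between the lists was tested. Of 11 other BTB adaptors 7 rose (63.6%) and 0 fell, with a median of 0.55 (0.08 with library size alone), and those with the smallest p were Rhobtb2 (1.11), Rhobtb1 (1.02), Rhobtb3 (0.62) and Ivns1abp (0.83). Keap1, which holds the oxidative stress factor NRF2 in check, rose by 0.46. Of 17 other SOCS box proteins 4 rose (23.5%, where 23.0% of all genes rose) and 2 fell (11.8%, where 26.3% of all genes fell), with a median of -0.13. Socs3, an inhibitor of cytokine receptors, fell from 14.4, 13.0 and 13.1 to 5.09, 4.69 and 4.36 CPM (-1.52 ± 0.13, adjusted p = 0.000208), and Wsb1 fell by 0.89. Wsb2 (0.72) and Neurl2 (0.78), a muscle adaptor for β-catenin, rose.

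**Figure D5:**
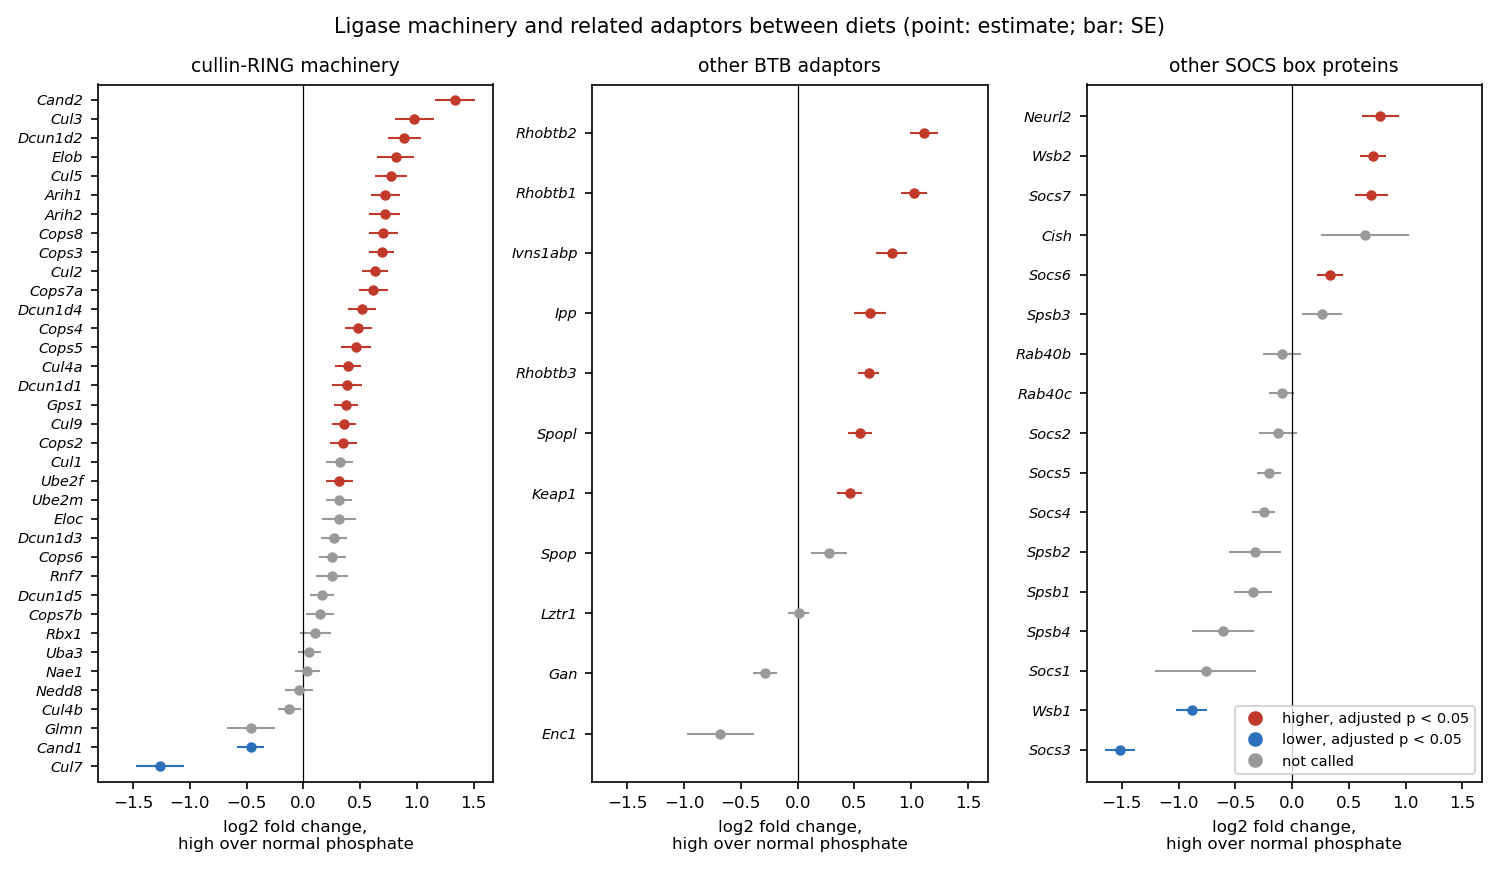
Log2 fold change, high over normal phosphate, of cullin-RING machinery genes, other BTB adaptors and other SOCS box proteins, as edgeR's estimate (point) with its standard error (bar). Cand2 (1.34) and Cul3 (0.98) lead the machinery and Cul7 (-1.26) ends it; with library size alone the machinery median turns from 0.36 to -0.12.

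Of 16 transcripts of proteins reported as substrates or partners of the members, 5 rose (31.2%) and 6 fell (37.5%), with a median of -0.10. Of all genes 23.0% rose and 26.3% fell. In either direction 11 of the 16 (68.8%) were called, against 49.3% of all genes. Flnc, for the filamin of the sarcomere, rose (407, 373 and 363 to 936, 846 and 668 CPM, 1.10 ± 0.18), while Flna, also a filamin gene, fell (-0.70). Des, for desmin, rose by 1.19 and Neb, for nebulin, by 0.71, and both are counted again among the muscle fibre markers below. Lmod3, for leiomodin 3, did not pass the test (0.41, adjusted p = 0.111). Also called were Tiam1 (0.99) and Wnk1 (0.47), which rose, and Tnfrsf1b (-1.62), Dapk1 (-1.24), Ckb (-1.14) and Pik3r1 (-0.54), which fell. Tnfrsf1b was listed for Asb3, Dapk1 for Klhl20 and Pik3r1 for Kbtbd2, which were not called, and Ckb for Asb9, which was not tested. Tiam1 was listed for Kbtbd6 and Kbtbd7, and Wnk1 for Klhl2 and Klhl3.

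Marker genes of cell types differed between the diets together with the members, and their part in these results was not tested. Muscle fibre markers, which check the labelled tissue, summed to 54116 to 77455 CPM on normal and 140909 to 182243 CPM on high phosphate, and 6 of 8 rose. Fast fibre markers rose in 7 of 8 and slow fibre markers fell in 6 of 7. All 8 white adipocyte markers fell, from a sum of 2365 to 3004 CPM to one of 560 to 964 CPM, as did all 8 fibroblast, 8 macrophage, 6 endothelial, 6 B cell and 5 T cell markers. Normal replicate 2, where Klhl4, Klhl5, Klhl6, Klhl13, Klhl36 and Klhl42 were highest, also had the highest fibroblast sum (10614 CPM) and macrophage sum (1934 CPM). Of the normal libraries it was highest too in the endothelial (841 CPM), smooth muscle (1405 CPM), Schwann (296 CPM), B cell (65.3 CPM) and T cell (26.5 CPM) sums. It was lowest in the muscle fibre (54116 CPM), white adipocyte (2365 CPM) and satellite cell (19.3 CPM) sums, and in those of fast and slow fibres. B cell markers summed to 9.62 to 65.3 CPM on normal, lowest in replicate 1, and to 1.01 to 1.83 CPM on high phosphate, and the counts of Ms4a1, Cr2 and the T cell marker Cd3d were 0 in one high phosphate library each. Among the normal libraries Klhl6 (6.21 CPM), Klhl3, Klhl4, Klhl5, Klhl36, Klhl42 and Kbtbd11 were lowest in replicate 1. A link of these genes with B cell content was not tested. Of smooth muscle markers 2 of 6 fell, of Schwann cell markers 1 of 5 fell, and of satellite cell markers 1 of 4 rose and 1 fell. Over all genes tested 23.0% rose and 26.3% fell, so the counts in these small lists were near that share. For the mean log2 level of a list, the two-sided exact permutation test of 3 against 3 gave p = 0.1, the smallest it allows (0.12 after Benjamini-Hochberg adjustment over 12 lists), except for the Schwann (p = 1.0) and satellite cell (p = 0.7) lists.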

How the data were processed

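RNA was measured in gastrocnemius of mice on a normal or high phosphate diet, 3 libraries each. The deposited count table holds whole numbers for each gene, without normalization. The authors also deposited FPKM values, with no tool or gene lengths stated. The submitters' processing notes name DESeq2 1.6.3, featureCounts 1.4.6, HISAT2 2.0.1 and Trim Galore 0.4.1 and the GRCm38 build, without their roles. Strand setting and annotation release: not given in the sources used here.

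From the counts, edgeR 4.0.16 (R 4.3.3) was fitted over all 6 libraries with TMM normalization, the filterByExpr filter and its robust quasi-likelihood test, with Benjamini-Hochberg adjustment over 15347 genes and a call at an adjusted p under 0.05. The fit was tested on simulated data in which 200 genes were changed, up or down at random. Far more genes were called in the real data, so that simulation did not test the scaling. Levels are TMM-normalized CPM, with n = 3 libraries per diet. Standard errors were derived from the log2 fold change and its F statistic, and are approximate. At 21856006 to 27474251 counts per library, the tested members had mean counts of 31.5 to 17729. Between libraries of one diet, chi-square over its degrees of freedom was 18.3 to 60.4, so none was a copy of another. Coordinates come from GENCODE (63 of 64 members matched) and promoters from RefSeq.

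The members and lists were chosen with earlier results of these data known, and lists are described by counts and medians without a test. In each family, called members whose mean reached 1 CPM and whose diets did not overlap were named, up to 8 in each direction, besides 22 known from muscle or disease. From other lists, up to 4 called genes by smallest p were named, and the further ones were chosen after their values were seen. The alternatives were other size factors, TMM after removing the 50 most abundant genes, library size alone, other filters, the replicate number as a block, leaving out each library, DESeq2 1.42.0, limma 3.58.1 on log2 FPKM with pseudocounts of 1 and 0.1, and a 2-fold limit. One called gene of the substrate list is not reported here by name.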

Additional observations from a re-analysis of the deposited data

How the results depend on the processing

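Among the 56 tested members, size factors in the style of DESeq2, TMM without the 50 most abundant genes, a filter of 1 CPM in 3 libraries, no filter, and DESeq2 ended 0, 0, 0, 1 and 1 of 38 calls, and turned the sign of none of these 38. Library size alone ended 18 calls, 4 of them with a turned sign, made 10 and turned the sign of 16 members. Log2 FPKM ended 21 calls (pseudocount 1) or 20 (pseudocount 0.1), made 5 and turned 17 signs; the tool and gene lengths behind FPKM are unknown, and the cause was not tested. The depth limits Klhl3 and the 8 members that were not tested.

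With library size alone the genes higher and lower were 878 and 7886 of all genes, 12 and 18 members, 7 ASB genes higher, 4 and 14 KLHL, 1 and 4 KBTBD, 6 and 9 machinery genes, 0 and 11 other SOCS box genes, 3 and 3 other BTB adaptors, and 3 substrates higher. The medians there were -0.49 (all genes), -0.026 (members), 0.30 (ASB), -0.28 (KLHL), -0.24 (KBTBD), -0.12 (machinery), -0.62 (SOCS box), 0.078 (BTB) and -0.58 (substrates). Of the 16 members that turned, those called with TMM or here were Asb7 (-0.068), Asb13 (-0.010), Klhl8 (-0.032), Klhl26 (-0.34), Kbtbd2 (-0.31), Kbtbd3 (-0.45), Kbtbd4 (-0.021) and Kbtbd7 (-0.47).

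On log2(FPKM + 1) and log2(FPKM + 0.1), in this order, the genes higher were 725 and 744 of all genes, 10 and 10 members, 6 and 6 ASB, 4 and 4 KLHL, 0 and 0 KBTBD, 2 and 2 machinery, 0 and 0 SOCS box, 2 and 2 BTB, and 2 and 2 substrates. Those lower were 5653 and 5980 of all genes, 13 members and 2 KBTBD (pseudocount 0.1), and with both 11 and 11 KLHL, 8 and 8 machinery, 8 and 7 SOCS box, and 1 and 1 BTB. The medians were -0.29 and -0.45 (all genes), -0.018 and -0.019 (members), 0.29 and 0.30 (ASB), -0.12 and -0.14 (KLHL), -0.16 and -0.19 (KBTBD), -0.10 and -0.10 (machinery), -0.54 and -0.65 (SOCS box), 0.076 and 0.054 (BTB), and -0.35 and -0.54 (substrates). Of the turned members called with TMM or here, Asb7 went to -0.11 and -0.16, Asb18 to -0.092 and -0.12, Klhl8 to -0.010 and -0.011, Kbtbd3 to -0.54 and -0.65, and Kbtbd4 to -0.025 and -0.028.

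With a 2-fold limit 686 of all genes were higher and 2076 lower, as were 7 members, 4 ASB, 3 KLHL and 0 KBTBD genes higher. With no filter the medians were -0.18 (all genes), 0.13 (KLHL) and 0.32 (KBTBD). The 1 CPM filter turned the substrate median to 0.072, with fewer genes tested, and called 1 other BTB adaptor lower.

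Same-numbered libraries did not deviate together (correlations -0.021, 0.022 and 0.019). No pairing by number was seen, though 3 libraries per diet cannot exclude a weak one. With the replicate number as a block 2 member calls were lost (Klhl3 and Kbtbd4), 1 was gained (Klhl11), and 1 other BTB adaptor was lower.

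Leaving out 1 library at a time gave these ranges for genes higher and lower: 2782 to 3502 and 3370 to 4075 of all genes, 25 to 29 and 7 to 9 members, 11 to 13 and 0 to 0 ASB, 13 to 14 and 6 to 8 KLHL, 1 to 4 and 1 to 1 KBTBD, 15 to 22 and 1 to 2 machinery, 3 to 4 and 2 to 4 SOCS box, 7 to 7 and 0 to 1 BTB, and 3 to 5 and 5 to 6 substrates. The medians ranged from 0.36 to 0.49 (members), 0.63 to 0.90 (ASB), 0.18 to 0.21 (KLHL), 0.14 to 0.31 (KBTBD), 0.30 to 0.42 (machinery), -0.24 to -0.046 (SOCS box), 0.49 to 0.60 (BTB) and -0.20 to -0.03 (substrates).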

Other observations

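The deposited FPKM and counts disagreed for some members. Relative to the typical gene of a library, FPKM per CPM varied 7.83-fold between libraries for Klhl13, 7.74-fold for Kbtbd11, 5.42-fold for Klhl15, 4.86-fold for Asb18, 4.496-fold for Klhl5 and 3.49-fold for Klhl22. The FPKM of Klhl22 was 10.7 in high phosphate replicate 3 and 2.96 and 3.35 in the other two high phosphate libraries, whereas its CPM was 41.4, 39.5 and 43.7. Of the 48 members with at least 100 counts in every library 8.33% varied more than 2-fold, against 10.6% of 9871 genes.

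Some members are neighbours in the genome, with unlike values in 3 of the pairs given here. Klhl6 and Klhl24 lie 115 kb apart on chromosome 16, and the first fell (-1.42) while the second rose (0.62). Klhl23 and Klhl41 are 138 kb apart on chromosome 2, with log2 fold changes of -0.17 (not called) and 0.74. Asb1 and Klhl30 are 178 kb apart on chromosome 1, with 0.22 (not called) and 0.96. Asb10 and Klhl7, 372 kb apart on chromosome 5, both rose (1.60 and 0.53).

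ASB coding sequences were shorter than those of the Kelch families, with a median of 1131 bases (834 to 1902) against 1821 for KLHL and 1821 for KBTBD, while the largest ASB change was in a gene of 1278 coding bases.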
